A study of Mus musculus with 9 samples.

Results

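The 9 genes described here were measured in fetal liver macrophages: the interferon-linked members of the PARP family, their partner Dtx3l, and the family members Parp1 and Parp8 for comparison. The rule took the rows of the deposited table whose Ensembl identifier belongs to Parp9, Dtx3l, Parp14, Parp10, Parp11, Parp12 and Zc3hav1 (7 interferon-linked members) or to Parp1 and Parp8 (2 comparison members). All 9 had a row among the 13708 genes of the table, and all 9 passed the filter on low values. The measurement was bulk RNA-seq of macrophages sorted from E15.5 mouse livers as CD45+ F4/80hi CD11blow cells, with 5 Mrc1Cre Xpr1fl/fl and 4 Xpr1fl/fl samples, each library made from 45 ng of total RNA. Xpr1 encodes a phosphate exporter. Both groups carried the Xpr1fl allele on both chromosomes, with loxP sites around exon 2 and a C57BL/6JRj background, and the Mrc1Cre Xpr1fl/fl group also carried the Cre driver, which the study used as a heterozygous allele. That driver is iCre and eYFP inserted in the Mrc1 gene, so it is active where Mrc1 (CD206) is, which in the fetal liver means macrophages and sinusoidal endothelial cells. The controls had no Cre, so Cre and the Mrc1 insertion cannot be told apart from the deletion. Nothing in the labels says that samples came from separate embryos or litters, so p-values may measure only the spread between these samples.

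PARP enzymes split NAD+ and attach its ADP-ribose part to proteins or nucleic acids. PARP1 builds long chains of it at broken DNA and is made in most cells, whereas several other members attach single units. A group of these is switched on by interferon and takes part in antiviral defence. PARP9 works in a complex with the ubiquitin ligase DTX3L. PARP14 carries macrodomains that bind ADP-ribose, and it has been studied in macrophages as a cofactor of STAT signalling. ZC3HAV1, also called ZAP, has lost the enzymatic activity and binds foreign RNA rich in CG dinucleotides.

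On GRCm39, the genes Parp14, Dtx3l and Parp9 lie next to each other on chromosome 16. Parp14 (ENSMUSG00000034422) spans 35653231 to 35692003 on the minus strand, Dtx3l (ENSMUSG00000049502) spans 35746881 to 35759521 on the minus strand, and Parp9 (ENSMUSG00000022906) spans 35758840 to 35792980 on the plus strand. Dtx3l and Parp9 start head to head and overlap by 682 bp, and 54877 bp separate Parp14 from Dtx3l. Chromosome 6 holds Zc3hav1 (ENSMUSG00000029826) at 38282221 to 38332504 and Parp12 (ENSMUSG00000038507) at 39063342 to 39095573, both on the minus strand, and Parp11 (ENSMUSG00000037997) at 127423483 to 127491198 on the plus strand. Parp10 (ENSMUSG00000063268) is at 76115374 to 76127648 on the minus strand of chromosome 15, where it shares 1401 bp with Plec on the same strand. Of the comparison genes, Parp1 (ENSMUSG00000026496) is at 180396443 to 180431307 on the plus strand of chromosome 1 and Parp8 (ENSMUSG00000021725) at 116987380 to 117162073 on the minus strand of chromosome 13. The library kit marks the strand, but whether the counting used it is not given in the sources used here. Reads from the overlap of Dtx3l and Parp9 may thus have been split between both genes. In the overlap of Parp10 and Plec, the strand could not tell the genes apart in any case.

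Sequences upstream of the transcription start were taken from RefSeq promoters on GRCm38.p6, in which 6 of the 9 members had an entry, 4 of them interferon-linked. Shown are the 250 bases before the start for Parp11, because an interferon-linked motif was found there, for Dtx3l as the member of the chromosome 16 cluster with an entry, and for Parp1 as the comparison gene. Capitals mark matches to the interferon-stimulated response element (ISRE, searched as GAAA, any 2 bases and GAAA) and to the gamma-activated site (GAS, searched as TTC, any 3 bases and GAA), both on either strand.
Parp11, upstream start, chr6:127446590-127446839, plus strand: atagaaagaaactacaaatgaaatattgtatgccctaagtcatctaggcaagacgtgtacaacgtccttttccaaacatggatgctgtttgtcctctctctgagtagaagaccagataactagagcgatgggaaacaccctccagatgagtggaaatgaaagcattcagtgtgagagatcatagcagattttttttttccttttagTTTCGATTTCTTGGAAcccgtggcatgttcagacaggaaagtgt
Dtx3l, chr16:35939028-35939277, minus strand: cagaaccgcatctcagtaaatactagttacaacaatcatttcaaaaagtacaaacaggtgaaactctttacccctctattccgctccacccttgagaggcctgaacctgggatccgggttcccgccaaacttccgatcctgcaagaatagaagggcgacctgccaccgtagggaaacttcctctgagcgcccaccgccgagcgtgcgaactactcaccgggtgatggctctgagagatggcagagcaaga
Parp1, chr1:180568641-180568890, plus strand: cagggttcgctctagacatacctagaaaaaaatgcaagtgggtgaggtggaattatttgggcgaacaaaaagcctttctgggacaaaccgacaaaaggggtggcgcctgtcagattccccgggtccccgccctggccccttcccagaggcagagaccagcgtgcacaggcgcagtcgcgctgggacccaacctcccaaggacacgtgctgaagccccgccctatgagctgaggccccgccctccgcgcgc
In Parp11 the ISRE letters lay 44 to 35 bases before the upstream start, read on the minus strand, and the GAS letters overlapped them at 37 to 29 bases before it. Among 32851 promoters of 300 bases in the RefSeq table, 3.44% held the ISRE letters, 8.30% the GAS letters and 0.454% both. Neither set of letters was found in the windows of Dtx3l, Parp12, Zc3hav1, Parp1, Parp8 or the downstream start of Parp11. A match here is a description of letters in one window, and its absence says nothing of binding elsewhere.

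As a check of the labels, Xpr1 averaged 1162.1 ± 84.9 normalized counts in Mrc1Cre Xpr1fl/fl and 1981.6 ± 204.7 in Xpr1fl/fl samples (SD, n = 5 and 4), and no sample of one genotype reached the other. The counts are per gene, so transcripts without exon 2 are still counted. Mrc1, whose locus carries the Cre insertion, fell from 24693.3 ± 2674.1 to 7574.1 ± 1265.6. Itgam, which encodes the CD11b of the sort, was higher in Mrc1Cre Xpr1fl/fl, at 2994.2 ± 336.4 against 2244.6 ± 338.1 (log2 fold change 0.42, adjusted p = 0.0071 by limma), with overlapping groups. Adgre1, which encodes F4/80, was at 42249.8 or more in every sample, and all 13 macrophage markers examined had a row in the table. Normalized counts summed to between 26942921 and 28309443 per sample, totals that the normalization sets, so the absolute depth is unknown. Correlations between samples over all genes ran from 0.947 to 0.986, so all 9 were kept as separate samples. The file's column names carry dates of unstated meaning that nearly follow genotype: the earliest date holds Mrc1Cre Xpr1fl/fl sample 5 and Xpr1fl/fl samples 1 to 3, another holds Xpr1fl/fl sample 4, and the latest holds Mrc1Cre Xpr1fl/fl samples 1 to 4.

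The question for these genes was whether the interferon-linked members differed between the genotypes, and whether they differed more than Parp1 and Parp8. All 7 interferon-linked members rose in Mrc1Cre Xpr1fl/fl macrophages, by 1.20-fold for Parp10 to 1.97-fold for Parp14, and neither Parp1 (1.07-fold) nor Parp8 (1.15-fold) passed the test. For 6 of the 7, every Mrc1Cre Xpr1fl/fl sample was above every control. These counts stand against a broad difference between the genotypes: of the 13594 genes tested, 43.1% passed the threshold, 21.5% as higher and 21.6% as lower, and 16.6% were higher without overlap. The test was limma on log2(normalized count + 1) with Benjamini-Hochberg adjustment over all genes, and fold changes on that scale are given below with their standard errors. In bulk samples, fewer cells of a type and less RNA per cell cannot be told apart, and the same holds for more of either.

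**Figure D1:**
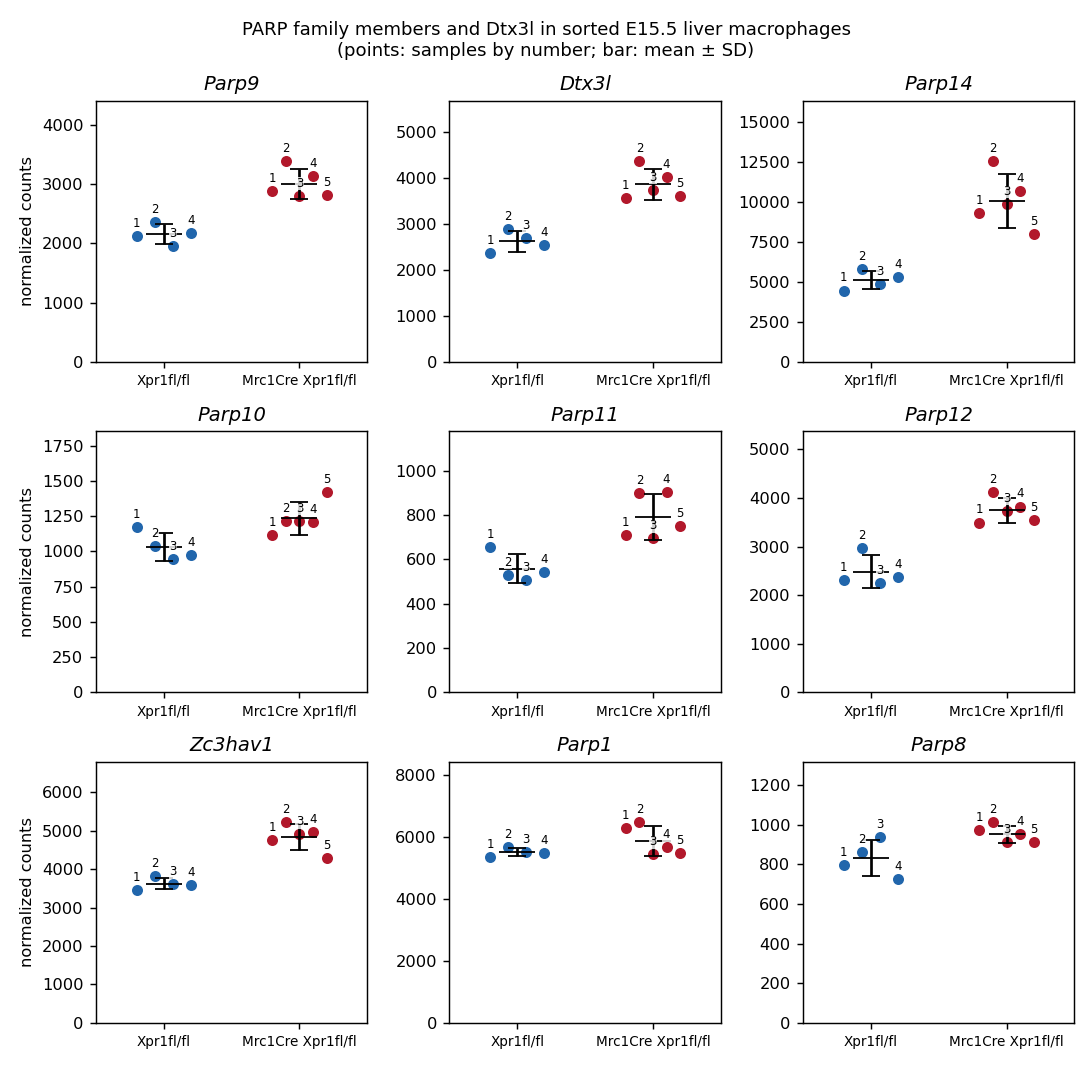
Normalized counts of the 9 members (y axis, from 0) in each Xpr1fl/fl sample (blue, n = 4) and Mrc1Cre Xpr1fl/fl sample (red, n = 5), with sample numbers beside the points and bars for the mean ± SD. The genotypes are separate for Parp9, Dtx3l, Parp14, Parp11, Parp12 and Zc3hav1 and overlap for Parp10, Parp1 and Parp8.

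Parp14 had the largest change of the 9. Its normalized counts were 9316.4, 12574.5, 9881.5, 10688.9 and 7997.1 in Mrc1Cre Xpr1fl/fl samples 1 to 5, and 4460.7, 5805.1, 4869.4 and 5320.1 in Xpr1fl/fl samples 1 to 4. The lowest Mrc1Cre Xpr1fl/fl sample, number 5, was still above the highest control, number 2. The means were 10091.7 ± 1699.5 and 5113.8 ± 579.3 (SD), a log2 fold change of 0.97 (SE 0.12, adjusted p = 0.000104 by limma), and 2.74% of the genes tested had a larger one.

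Dtx3l and Parp9, which encode the partners of one complex and share a start region, moved by similar amounts. Dtx3l stood at 3559.8, 4375.6, 3742.0, 4026.4 and 3617.5 in the 5 Mrc1Cre Xpr1fl/fl samples and at 2365.9, 2894.1, 2703.5 and 2535.1 in the 4 controls. For Parp9 the counts were 2882.3, 3393.6, 2804.1, 3140.7 and 2817.1 against 2130.7, 2368.1, 1964.5 and 2173.2. Within both genes the groups were separate, and sample 2 was the highest of its genotype in both groups. Dtx3l rose 1.47-fold, from 2624.7 ± 226.4 to 3864.3 ± 337.8 (log2 fold change 0.56, SE 0.08, adjusted p = 0.000203 by limma). Parp9 rose 1.39-fold, from 2159.1 ± 165.9 to 3007.5 ± 255.0 (log2 fold change 0.48, SE 0.07, adjusted p = 0.000415 by limma). The interval of Dtx3l, 0.39 to 0.72, and that of Parp9, 0.32 to 0.64, overlapped over most of their length.

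Parp12 and Zc3hav1 both carry zinc fingers of the kind that bind RNA. Parp12 read 3495.2, 4132.7, 3734.9, 3824.4 and 3544.7 in Mrc1Cre Xpr1fl/fl samples 1 to 5 and 2314.3, 2979.8, 2243.7 and 2380.7 in the controls. Zc3hav1 read 4766.9, 5224.1, 4904.2, 4975.6 and 4297.7 against 3466.0, 3825.1, 3604.1 and 3585.9. Neither gene had an overlap between the genotypes, and the controls of Zc3hav1 lay closer together than those of Parp12. Parp12 rose 1.51-fold, from 2479.6 ± 338.1 to 3746.4 ± 254.6 (log2 fold change 0.60, SE 0.08, adjusted p = 0.000241 by limma). Zc3hav1 rose 1.34-fold, from 3620.3 ± 149.7 to 4833.7 ± 342.5 (log2 fold change 0.41, SE 0.06, adjusted p = 0.000292 by limma).

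Parp11, whose upstream window holds the ISRE and GAS letters, was the interferon-linked member with the lowest level per kilobase of exon. Its counts were 709.6, 901.0, 695.3, 906.3 and 748.7 in Mrc1Cre Xpr1fl/fl samples and 655.4, 530.0, 505.7 and 540.8 in controls. The gap was narrow, since control 1 stood above the other controls and close to Mrc1Cre Xpr1fl/fl samples 1 and 3. Parp11 rose 1.42-fold, from 558.0 ± 66.6 to 792.2 ± 103.7 (log2 fold change 0.50, SE 0.11, adjusted p = 0.00336 by limma).

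Parp10, which attaches single ADP-ribose units, had the smallest and least stable rise of the interferon-linked members. It measured 1112.6, 1212.1, 1213.9, 1205.2 and 1424.0 in Mrc1Cre Xpr1fl/fl samples 1 to 5 and 1169.2, 1034.9, 946.6 and 975.7 in the controls. Mrc1Cre Xpr1fl/fl sample 1 fell below control 1, so the groups overlapped. The means were 1233.5 ± 114.6 and 1031.6 ± 98.8, a 1.20-fold difference (log2 fold change 0.26, SE 0.08, adjusted p = 0.0266 by limma), and 22.0% of all genes tested had a larger log2 fold change. The call was lost without control 3 (adjusted p = 0.0823), without control 4 (adjusted p = 0.0681) and without both samples numbered 2 (adjusted p = 0.0757).

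Parp1, the DNA break sensor, stood at 6298.1, 6478.5, 5438.7, 5662.8 and 5477.8 in Mrc1Cre Xpr1fl/fl samples and at 5355.0, 5673.9, 5502.4 and 5483.2 in controls. Samples 1 and 2 of Mrc1Cre Xpr1fl/fl lay above all controls, and the others were within or close to the control range. The means of 5871.2 ± 483.8 and 5503.6 ± 131.0 gave a log2 fold change of 0.09 (interval −0.04 to 0.22, adjusted p = 0.257 by limma), whose sign turned to −0.02 under quantile normalization. Parp8 stood at 972.9, 1012.6, 911.2, 952.4 and 911.1 against 796.8, 862.2, 937.5 and 725.5. Here control 3 reached into the Mrc1Cre Xpr1fl/fl range and control 4 was the lowest sample. Its means of 952.0 ± 43.2 and 830.5 ± 90.6 gave a log2 fold change of 0.20 (interval 0.03 to 0.37, adjusted p = 0.0544 by limma), just outside the threshold, and the adjusted p was 0.0214 without control 3.

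**Figure D2:**
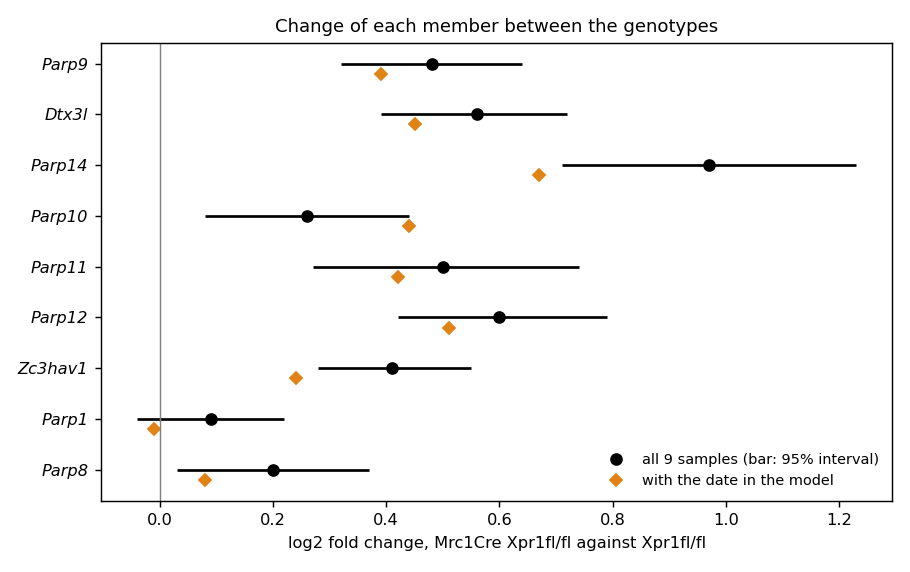
Log2 fold change (x axis) of each member in Mrc1Cre Xpr1fl/fl against Xpr1fl/fl samples, with its 95% interval from all 9 samples (black) and the value from the fit that also holds the date of the column name (orange). Parp14 lies farthest right at 0.97, Parp1 lies at 0.09 with an interval that includes 0, and the orange point is left of the black point for every member except Parp10.

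To test the contrast itself, the log2 value of every gene was taken relative to that of Parp1 in the same sample, and the fit was repeated across all genes. Of the 7 interferon-linked members, 6 changed more than Parp1, where 10.9% of all genes did. The difference in log2 fold change was 0.88 for Parp14 (adjusted p = 5.06e-05), 0.51 for Parp12 (adjusted p = 0.000823), 0.47 for Dtx3l (adjusted p = 0.000767) and 0.41 for Parp11 (adjusted p = 0.0167), by limma. For Parp9 it was 0.39 (adjusted p = 0.00187) and for Zc3hav1 0.33 (adjusted p = 0.00346). Parp10 exceeded Parp1 by 0.17, with an interval from −0.08 to 0.42, which did not pass (adjusted p = 0.284).

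Relative to Parp8, the count was smaller. Parp14 (difference 0.77, adjusted p = 0.000124), Dtx3l (0.36, adjusted p = 0.00735) and Parp12 (0.40, adjusted p = 0.00799) changed more than Parp8 by limma, 3 of 7, where 5.31% of all genes did. Parp9 missed the threshold narrowly at 0.28 (interval 0.05 to 0.50, adjusted p = 0.0502). Parp11 was at 0.30 (interval 0.02 to 0.58, adjusted p = 0.0879) and Zc3hav1 at 0.21 (interval 0.01 to 0.41, adjusted p = 0.0869). Parp10 differed from Parp8 by 0.06 with an interval from −0.21 to 0.32. The count was not stable. Without control 4, the sample with the lowest Parp8, 5 of the 7 members passed, where 8.36% of all genes did. Other settings that kept control 4 also raised it. Between Parp8 and Parp1 themselves the difference was 0.11 (interval −0.08 to 0.30, adjusted p = 0.349).

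**Figure D3:**
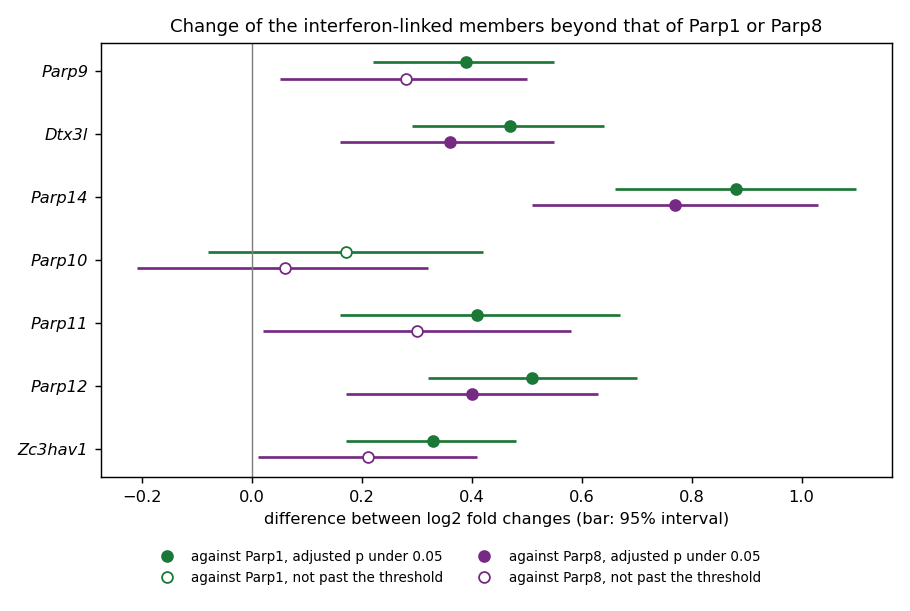
Difference between the log2 fold change of each interferon-linked member and that of Parp1 (green) or Parp8 (purple), with 95% intervals. Filled points passed an adjusted p of 0.05, which 6 of 7 did against Parp1 and 3 of 7 against Parp8. Parp10 has intervals that include 0 in both.

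The dates bear on these results, since 4 of the 5 Mrc1Cre Xpr1fl/fl samples share the latest date, which no control has. Among samples of the earliest date, the lone Mrc1Cre Xpr1fl/fl sample was above all 3 controls for each of the 7 interferon-linked members, against 34.9% of all genes. The fold over the mean of those controls was 1.59 for Parp14, 1.41 for Parp12, 1.36 for Dtx3l and Parp10, 1.33 for Parp11, 1.31 for Parp9 and 1.18 for Zc3hav1. For Parp1 it was 0.994 and for Parp8 1.05, and in both genes that sample fell within the control range. With the date included in the model, the genotype difference rests on this sample alone, and 4.24% of all genes passed as higher and 4.54% as lower. Parp14 was the only member that passed then (log2 fold change 0.67, adjusted p = 0.0383 by limma). The other interferon-linked members kept positive values, from 0.24 for Zc3hav1 to 0.51 for Parp12, with adjusted p from 0.0525 for Parp10 to 0.212 for Parp11.

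Markers of other cells differed between the genotypes as well, where 21.5% of all genes tested were higher and 21.6% lower. The summed normalized counts of the 19 erythroid markers in the table ran from 96558.6 to 316734.3 in Mrc1Cre Xpr1fl/fl and from 421618.4 to 669642.4 in Xpr1fl/fl samples, and all 19 fell. They took 0.342 to 1.13% of all normalized counts in the former and 1.56 to 2.41% in the latter. The sums of endothelial (6343.4 to 8443.0 against 10374.9 to 14428.8) and hepatocyte markers (35597.9 to 46068.5 against 60088.7 to 104024.4) were lower without overlap, with 8 of 10 and 12 of 12 markers falling. Lymphoid and plasmacytoid dendritic cell markers summed to 70.7 to 110.1 against 179.7 to 474.8 (3 of 4 fell, and Cd3e, Cd3g, Klrb1c and Ncr1 had no row), and megakaryocyte markers to 722.2 to 1037.0 against 2146.1 to 2578.3 (2 of 5 fell). Granulocyte sums overlapped, at 5066.4 to 18271.0 against 9180.2 to 54702.0 (4 of 10 fell), as did proliferation sums, at 90058.3 to 104311.7 against 91233.4 to 104706.6 (2 of 17 rose and 4 fell). The monocyte sum was the one that was higher, at 14897.0 to 21103.4 against 11977.9 to 14419.2, with Plac8 and Cx3cr1 rising among 7 markers and 3 falling, Ly6c2 and F13a1 among them. Of 13 macrophage markers, Ptprc rose and 6 fell, among them Clec4f, Marco and Timd4, which mark resident macrophages of the liver. The macrophage markers summed to 305373.0 to 334038.8 in Mrc1Cre Xpr1fl/fl and 350494.2 to 456963.8 in Xpr1fl/fl samples, lower without overlap. That sum was not a fall shared by all 13 markers. Marco averaged 21211.7 against 69442.9, and Mrc1, whose locus carries the Cre insertion, 7574.1 against 24693.3. Adgre1 (log2 fold change 0.02), Csf1r (0.14), Cd68 (−0.13), Mertk (0.16), Fcgr1 (0.03) and C1qb (−0.11) did not pass by limma. With the date in the model, the median log2 fold change was −0.95 for erythroid markers (−1.79 without the date). It was −0.57 for hepatocyte (−1.1 without it), −0.99 for endothelial (−1.3) and −0.76 for granulocyte markers (−1.56). For lymphoid markers it was −1.96 (−1.42), for megakaryocyte −0.26 (−1.43) and for proliferation −0.06 (0.03). The macrophage median was −0.05 (−0.13) and the monocyte median −0.59 (−0.09). Neither rise of a monocyte marker held in that fit, with Plac8 at 0.65 and Cx3cr1 at 0.24. No marker with a row was at 0 in every sample.

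The genotype explained 84.5% of the variance of the erythroid score, the mean log2 value of that list. With the score as a covariate, none of the 9 members passed the test, at an adjusted or an unadjusted p of 0.05, where 0.287% of all genes passed at the adjusted threshold and 11.1% at the unadjusted one. All 7 interferon-linked members kept positive values in that fit, from 0.12 (SE 0.12) for Zc3hav1 to 0.44 (SE 0.21) for Parp10. Parp1 was at −0.21 (SE 0.12) and Parp8 at −0.01 (SE 0.19). The tie of score and genotype inflated the variance of the genotype term 6.44-fold, so the signs alone say little. The part of the other cell types in the changes of the members was not tested further.

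Within each genotype, several members varied together. Sample 2 was the highest of its group for Parp9, Dtx3l, Parp14, Parp12 and Zc3hav1 in both Mrc1Cre Xpr1fl/fl and Xpr1fl/fl. Those 2 samples carry different dates in the column names, and each had the lowest erythroid marker sum of its group, 96558.6 and 421618.4. Parp10 was highest in Mrc1Cre Xpr1fl/fl sample 5 and control 1, and Parp11 in Mrc1Cre Xpr1fl/fl sample 4 and control 1. Without both samples numbered 2, an alternative chosen after seeing the data, 6 of the 7 members passed, with Parp10 lost, and 5 still changed more than Parp1. In those fits 17.1% of all genes passed as higher and 9.23% changed more than Parp1.

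**Figure D4:**
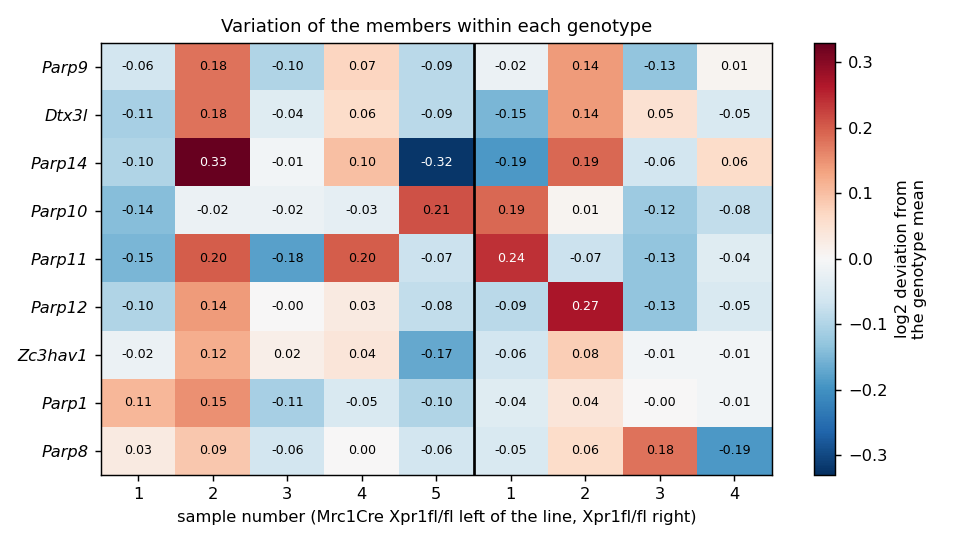
Log2 deviation of each member from the mean of its genotype (colour and printed value) in each sample, Mrc1Cre Xpr1fl/fl left of the line and Xpr1fl/fl right of it. Sample 2 is high for 5 members in both genotypes, with Parp14 at 0.33 and 0.19, whereas Parp10 is highest in Mrc1Cre Xpr1fl/fl sample 5.

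Over the 9 samples, these deviations gave Pearson correlations from −0.566 to 0.950 among the 21 pairs of interferon-linked members, with a median of 0.593, and 16 were positive. The highest was that of Parp14 with Zc3hav1, and the lowest that of Parp10 with Zc3hav1. Parp9 and Dtx3l, with their shared start region, were at 0.709, below Dtx3l with Parp14 at 0.860. All values come from the same 9 libraries and share their normalization, and they are given as a description. Of 10501 other genes, the 5 whose deviations were most like the mean of the 7 members were Med1 (0.966), Trim30d (0.966), Rhot1 (0.955), Sp100 (0.949) and Ifi204 (0.947). For all 5, sample 2 was the highest of its genotype in both groups, and the likeness without those samples was not tested. Sp100 and Ifi204 are known as interferon-induced genes. Ifi204 averaged 9514.6 ± 1251.5 in Mrc1Cre Xpr1fl/fl and 5755.3 ± 798.7 in Xpr1fl/fl samples, and Sp100 4562.2 ± 678.3 and 2551.7 ± 459.6. The changes of the others were smaller: Med1 rose by a log2 fold change of 0.34 (adjusted p = 0.00523 by limma) and Rhot1 by 0.13 (adjusted p = 0.044), and Trim30d did not pass (log2 fold change 0.27, adjusted p = 0.102), with overlapping groups.

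Levels were compared between members per kilobase of exon (the union of all annotated exons). In Xpr1fl/fl samples Parp1 was highest, at 755.5 ± 18.0 normalized counts per kilobase, above Parp12 at 569.6 ± 77.7, Parp14 at 533.7 ± 60.5, Dtx3l at 458.5 ± 39.5 and Parp9 at 429.8 ± 33.0. From Parp12 to Parp9, the ranges of neighbours in this order overlapped. Below them, each without overlap with the next, were Zc3hav1 (354.3 ± 14.6), Parp10 (240.9 ± 23.1), Parp8 (64.6 ± 7.0) and Parp11 (43.4 ± 5.2). In Mrc1Cre Xpr1fl/fl samples Parp14 was at the top, at 1053.3 ± 177.4 per kilobase, followed by Parp12 at 860.6 ± 58.5 and Parp1 at 805.9 ± 66.4, with overlapping ranges between neighbours from Parp14 down to Parp9. Dtx3l was at 675.0 ± 59.0, Parp9 at 598.8 ± 50.8, Zc3hav1 at 473.1 ± 33.5, Parp10 at 288.1 ± 26.8, Parp8 at 74.0 ± 3.4 and Parp11 at 61.6 ± 8.1. With the longest transcript as the length, Parp1 stayed at the top in controls and Parp14 in Mrc1Cre Xpr1fl/fl samples, whereas Zc3hav1 moved up to the fourth place in both.

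The rest of the family and its surroundings were taken as lists. Of 8 other PARP genes, 5 rose and 1 fell (median log2 fold change 0.31, against 0.00 over all genes tested). Of all genes tested, 21.5% were higher and 21.6% lower. Parp3, a DNA repair enzyme, rose from 288.2 ± 36.8 to 411.8 ± 33.9 (log2 fold change 0.52, adjusted p = 0.00245 by limma), the tankyrase gene Tnks2 from 8957.1 ± 426.3 to 11745.6 ± 801.8 (0.39, adjusted p = 0.000484), and Parp6 from 372.9 ± 27.9 to 479.1 ± 43.3 (0.36, adjusted p = 0.00721). Parp16, anchored in the endoplasmic reticulum, fell from 257.9 ± 20.4 to 161.4 ± 26.5 (−0.68, adjusted p = 0.00167). None of the 8 passed by limma when the date was in the model, where 4 had an unadjusted p under 0.05, as did 25.9% of all genes. Among 3 other deltex genes, relatives of Dtx3l, Dtx4 (log2 fold change 0.26) and Dtx2 (0.24) rose and Dtx3 (−0.33) fell. With the date in the model none of the 3 passed by limma, 1 had an unadjusted p under 0.05, and Dtx3 was at −0.02 (adjusted p = 0.966). Dtx1 had no row. Scaling to the 75th percentile left 3 other PARP genes higher and 2 lower, and among the deltex genes 0 higher and 1 lower by limma, with an unadjusted p under 0.05 for all 3. Over all genes the shares at that scaling were 14.7% higher, 27.3% lower and 50.7% at an unadjusted p under 0.05.

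Of 6 genes that remove ADP-ribose, 2 fell and 4 did not pass the test, including Parg, which cuts the chains (log2 fold change 0.19, adjusted p = 0.239). The hydrolase Macrod1 fell from 116.3 ± 17.1 to 67.2 ± 11.9 (−0.79, adjusted p = 0.0035 by limma) and Oard1 from 714.5 ± 22.6 to 550.3 ± 36.6 (−0.38, adjusted p = 0.00128). Of 12 genes of NAD supply and use, 2 rose and 6 fell (median −0.31). The counts of both lists stand beside 21.5% of all genes tested that were higher and 21.6% that were lower. Nampt, the rate-limiting enzyme of NAD salvage from nicotinamide, rose from 3869.4 ± 241.5 to 5622.4 ± 378.1 (0.54, adjusted p = 8.36e-05), and the NAD kinase Nadk from 3463.7 ± 73.5 to 5592.0 ± 235.8 (0.69, adjusted p = 4.81e-06). Qprt, which makes NAD precursor from tryptophan breakdown, fell from 432.6 ± 39.7 to 201.8 ± 31.8 (−1.11, adjusted p = 8.36e-05), and Naprt, which starts from nicotinic acid, from 217.8 ± 16.3 to 93.7 ± 26.4 (−1.25, adjusted p = 0.000302). Sarm1, a NAD-splitting enzyme, was near the detection filter at 6.9 ± 4.6 against 21.2 ± 7.4 (−1.60, adjusted p = 0.0119). When the date was included, Nampt (0.35, adjusted p = 0.0396), Nadk (0.69, adjusted p = 0.0022), Qprt (−0.85, adjusted p = 0.0409) and Macrod1 (−1.10, adjusted p = 0.047) still passed.

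**Figure D5:**
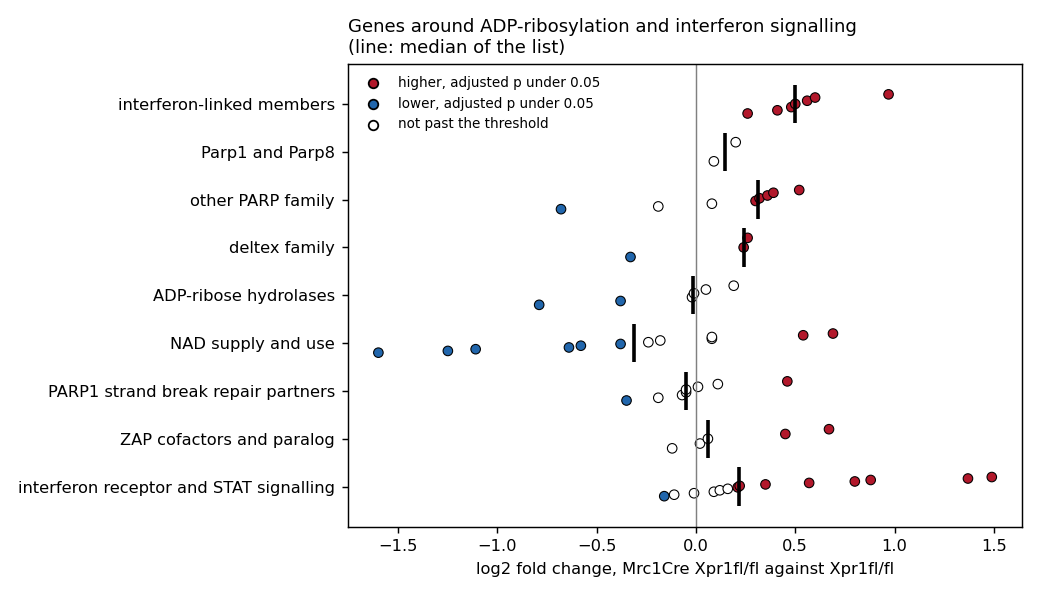
Log2 fold change (x axis) of each gene tested in the interferon-linked members, Parp1 and Parp8, and 7 lists around them, with red for higher, blue for lower and white for not past the threshold, and a line at the median of each list. The interferon-linked members all lie right of 0, and the NAD list spreads to both sides with a median of −0.31.

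Of 8 partners of PARP1 in the repair of DNA strand breaks, 1 rose and 1 fell. Over all genes tested, 21.5% were higher and 21.6% lower. Lig3 rose (log2 fold change 0.46, adjusted p = 0.0129 by limma), Xrcc1 fell (−0.35, adjusted p = 0.00186), and the median was −0.05. Neither call held with the date in the model, where the log2 fold change was 0.43 for Lig3 and −0.19 for Xrcc1. Among 5 cofactors and relatives of ZAP, N4bp1, an RNA-cutting enzyme, rose from 1739.0 ± 64.2 to 2765.0 ± 159.8 (0.67, adjusted p = 1.26e-05 by limma), and Trim25, a ubiquitin ligase that ZAP needs, from 4252.6 ± 260.1 to 5836.2 ± 638.6 (0.45, adjusted p = 0.0012). Zc3hav1l, the neighbouring relative of Zc3hav1, did not pass (−0.12, adjusted p = 0.39). With the date in the model, the log2 fold change was 0.56 for N4bp1 and 0.18 for Trim25.

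Of 14 genes for interferon receptors, JAK kinases, STATs and their regulators, 8 rose and 1 fell (median 0.22). Over all genes tested, 21.5% were higher and 21.6% lower. With scaling to the 75th percentile 4 of the list rose and 2 fell, where 14.7% of all genes were higher and 27.3% lower. Irf7, the interferon-inducible regulator of type I interferon genes, measured 8148.4, 11905.8, 9308.3, 9481.2 and 8546.8 in Mrc1Cre Xpr1fl/fl samples and 3284.3, 4510.4, 2569.8 and 3308.1 in controls (log2 fold change 1.49, adjusted p = 3.43e-05 by limma). Usp18, which dampens the receptor and removes ISG15, measured 598.6, 915.9, 730.8, 721.4 and 646.6 against 230.6, 385.6, 264.4 and 248.5 (1.37, adjusted p = 7.95e-05). For both genes sample 2 was again the highest of each genotype, as for 5 of the PARP group members. Socs1, an inhibitor of JAK kinases, averaged 62.6 ± 26.6 against 31.8 ± 7.8 with overlapping groups (0.88, adjusted p = 0.0343). The receptor gene Ifnar2 fell from 5921.0 ± 370.1 to 5305.0 ± 236.4 (−0.16, adjusted p = 0.0374), and Ifnar1 did not pass (0.09, adjusted p = 0.301). With the date in the model, the log2 fold change was 1.34 for Irf7, 1.17 for Usp18 and −0.19 for Ifnar2. That of Irf1, named after its values were seen, was 0.78. In that fit the genotype difference rests on Mrc1Cre Xpr1fl/fl sample 5 alone.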

How the data were processed

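The deposited table holds a signal per gene: gene counts that the authors obtained with salmon (index of GRCm39), AnnotationHub and tximport and divided by DESeq2 normalization factors. Read quality was checked with FastQC. Versions are not given in the sources used here. Steps of the low values did not yield whole reads, so no count test was run here. Symbols, positions and lengths came from GENCODE release M39 (GRCm39), with a symbol for 13698 genes.

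Genes that reached 10 normalized counts in 4 or more samples were tested with limma 3.58.1 (lmFit, eBayes with trend, R 4.3.3) on log2(value + 1), with Benjamini-Hochberg adjustment at 0.05, and again relative to Parp1 or Parp8. Fold changes understate those of low genes. The main fit and the fit relative to Parp1 were tried on simulated data with changes larger than those of the members. The simulation held no dates and no mixture of cells, so it does not test the fits under the conditions of these samples. The members, lists and tests were chosen with earlier results of these data known. Most genes were named by rule: the members, Xpr1, Mrc1, up to 3 rises and 3 falls per list, the nearest tested neighbours and the 5 genes most alike. Others, such as Itgam, Parg, Ifnar1, Irf1 and single cell type markers, were named outside that rule. Parp9, Parp14 and Parp10 had no promoter entry. Alternatives were other pseudocounts (0.5, 10), filters, scalings, fits, covariates, the replicate block and leaving out each sample. Figures were drawn with matplotlib 3.10.9.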

Additional observations from a re-analysis of the deposited data

Results flagged for a closer look

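In 6 of 122 groups of 4 or 5 samples, a sample stood apart from the others of its genotype by Dixon's criterion, where chance would give 6.1. None of the 9 members was among them. In Mrc1Cre Xpr1fl/fl sample 1, Lin9, the neighbour of Parp1, stood at 471.5 normalized counts, with the others at 381.8 to 404.6. In Mrc1Cre Xpr1fl/fl sample 5, Tnks2 was low at 10314.1 (others 12018.7 to 12155.1), and the sum of the granulocyte markers was high at 18271.0 (others 5066.4 to 8634.3). Among the controls, Ifi204 was high in sample 2 at 6942.1 (others 5205.5 to 5444.7), Dtx2 was low in sample 1 at 607.6 (others 667.4 to 678.0), and Macrod1 was high in sample 3 at 141.9 (others 106.7 to 109.2).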

How the results depend on the processing

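With the date in the model, the genes past the threshold fell from 5865 to 1194, the interferon-linked members past it from 7 to 1, those with a change above Parp1 from 6 to 1, and above Parp8 from 3 to 1. With the erythroid score as a covariate the same counts were 39, 0, 0 and 0. Array weights raised the count above Parp8 to 6 and the genes past the threshold to 6243. Leaving out each sample gave 3 to 5 members above Parp8. The 5 came without control 4, where 8.36% of all genes were above Parp8, against 5.31% with all samples. The shares of all genes above Parp1 or Parp8 were not taken in the fits with the date, the erythroid score or array weights. Nor was the share above Parp8 taken without the other single samples. The counts from those fits therefore cannot be read as a result about the members. The sign of Parp1 turned to −0.02 under quantile normalization, −0.01 with the date and −0.21 with the erythroid score, and that of Parp8 to −0.01 with the erythroid score; the cause was not tested. Scaling to the 75th percentile gave 1999 higher and 3706 lower genes (35.0% higher, against 49.9%), moved the median of all genes to −0.07 and ended the call of Parp10 (0.18, adjusted p = 0.131).

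With the replicate number as a block, 6227 genes and 6 of the 7 members passed, without Parp10 (0.20, adjusted p = 0.0701). Deviations of same-numbered samples correlated at −0.0333 to 0.147. For numbers 1, 3 and 4 another control correlated better, whereas the pair numbered 2 was at 0.147, against 0.0301 with the best other control. The numbers are those of the sample titles. In the column names, same-numbered samples of the genotypes carry different dates and different running numbers, so the block stands for no known pairing. A count test was not run, since whole reads could not be recovered. The absolute depth is unknown. Over all 23 settings the log2 fold change of Parp14 ran from 0.31 to 1.05 and that of each interferon-linked member was positive.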

Other observations

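Genes next to the members did not share one direction. Beside the chromosome 16 cluster, Hspbap1, 4384 bp from Parp14, fell from 249.6 ± 26.9 to 180.2 ± 26.1 normalized counts (log2 fold change −0.47, adjusted p = 0.011 by limma), and Kpna1, 6140 bp from Parp9, rose from 2805.1 ± 211.5 to 3427.7 ± 315.0 (0.29, adjusted p = 0.0103). Tbxas1, the thromboxane synthase gene 1819 bp from Parp12, fell from 3640.0 ± 654.8 to 1947.7 ± 300.6 (−0.90, adjusted p = 0.000391), while Kdm7a on the other side did not pass (0.25, adjusted p = 0.0554). Grina, 3039 bp from Parp10, fell (−0.55, adjusted p = 0.00279), and Gm19945 did not pass (0.37, adjusted p = 0.485). Neither neighbour of Zc3hav1 passed, Zc3hav1l at −0.12 and Ift56 at 0.54.

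The nearest tested gene upstream of Parp11 was Ccnd2, the cyclin D2 gene, 294327 bp away. It rose 3.30-fold, from 810.9 ± 90.9 to 2674.1 ± 244.9 normalized counts (log2 fold change 1.72, adjusted p = 2.02e-06 by limma), with all 5 Mrc1Cre Xpr1fl/fl samples above all 4 controls. Cracr2a on the other side of Parp11 did not pass (−0.09). By Parp1, Itpkb rose (0.20, adjusted p = 0.0191) and Lin9 did not pass (−0.05). By Parp8, Itga1 fell (−1.61, adjusted p = 0.00031) and Emb did not pass (0.13).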
